A study of Drosophila melanogaster with 3 samples.

Results

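The genes sickie (sick), Myocardin-related transcription factor (Mrtf) and Septin 4 (Sep4) encode, in this order, a protein that acts on actin filaments, a transcriptional coactivator that responds to actin, and a septin. Here they are described as genes bound by Collier (Col) in the Drosophila embryo. Their Col peaks were taken as every summit whose gene label read sick, Mrtf or Sep4, which gave 11 of the 559 summits of the deposited list, 9 at sick and 1 each at Mrtf and Sep4. The genes were selected on readouts of the same list, namely the number of summits for sick and the fold enrichment for Sep4. These values are therefore given as a description, without a test.

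Chromatin came from whole embryos at stages 13 to 14 that carried a lacZ reporter transgene under a col enhancer in which the Col site had been replaced by the in vitro consensus, so both antibodies were used on the same genotype. For the Col-IP library, 3 monoclonal antibodies against Col were used together, and for the mock-IP library an HA antibody that the labels call non-relevant. A library of input DNA made without antibody completes the 3 libraries of the series. Each IP library was sequenced once, from 2 pooled IPs, so no spread between replicates could be measured. Whole embryos mix Col-expressing cells with a large excess of other cells, and a summit does not tell in which of the Col-expressing cells Col was bound. A summit is the single base at which the peak caller placed a peak. Its fold enrichment is a linear ratio assigned by the peak caller, over a background that the methods do not specify. The list carries no read counts, so that the depth behind a single summit is unknown.

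Col is the only fly member of the COE transcription factors, the family of vertebrate EBF proteins, which bind as dimers to a palindromic DNA sequence. It acts in the identity of dorso-lateral muscles and of particular neurons, as well as in head patterning. Both muscle fibres and axons take their shape from the cytoskeleton. Actin filaments are built from monomers and taken apart again by proteins such as cofilin, and septins are GTP-binding proteins that assemble into filaments at the cell cortex and at the cleavage furrow. Mrtf links the state of actin to transcription, because it binds monomeric actin and, once released, enters the nucleus as a coactivator of serum response factor, the product of blistered (bs) in Drosophila. The product of sick is related to the vertebrate neuron navigator proteins and promotes actin-dependent axon growth.

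The DNA under these summits is shown first, because the rule that chose the genes did not use the match of each site to the Col motif. The match is not independent of that choice, since fold enrichment was higher at better matched sites over the list. The study listed the best motif occurrence found within 200 bp windows centred on the summits. Each of the 11 summits had such a site of 15 bases, as did 542 of all 559 summits, so nothing is read from this count. In vitro, the mammalian homologue EBF prefers the half-site ATTCCC and its reverse complement GGGAAT, separated by 2 bases of any kind. This sequence fixes 12 bases, of which the 6 in the middle form the central motif CCCNNGGG. In the sites below, capitals mark the bases that match the 12 fixed ones, lower case marks mismatches, the spacer and the first base, and sites are written 5′ to 3′ on the strand on which they were listed. Which genomic strand this is was not determined here. Coordinates are those of dm3. The sites of Sep4 and Mrtf come first, as each of these genes has a single summit.
Sep4, chrX:16583782-16583796: aATgCCCatGGGAAT
Mrtf, chr3L:2745203-2745217: aATTCCCagGGGgga
The sites at sick follow in their order along chromosome arm 2L, since their differences from each other are what the comparison below is about.
sick summit 1, chr2L:19802539-19802553: aATTCCCatGaGggc
sick summit 2, chr2L:19807228-19807242: aATgCCCaaGGGgga
sick summit 3, chr2L:19829533-19829547: accTCCCctGGGgtg
sick summit 4, chr2L:19829885-19829899: tgTgCCCaaGtGAgg
sick summit 5, chr2L:19831641-19831655: cATTCCCttGGtgAT
sick summit 6, chr2L:19837147-19837161: aATcCCCctGGcAAT
sick summit 7, chr2L:19838809-19838823: aATTCCacgGGGAAg
sick summit 8, chr2L:19893353-19893367: tggTCCCtgGaGggc
sick summit 9, chr2L:19908159-19908173: agcTCCCtaGaGAtT

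Sep4 had one of the best matches of the list and Mrtf a match slightly above the middle, while the sites at sick ranged from poor to good. The site at Sep4 held 11 of the 12 bases and differed by the single substitution T3G, in which the base of the in vitro sequence comes first, then its position counted from 1 at the 5′ end of ATTCCC, then the base of the site. Only 13 of all 542 listed sites held 11 or 12 bases. Its right half-site GGGAAT was whole. On the listed strand the right half-site was whole in 8 sites of the list (1.48%) and the left one in 105 (19.4%), and as the sequence is palindromic a whole right half-site reads as a whole left one on the other strand. The site at Mrtf held 9 bases, against a median of 8 over all listed sites, with a whole left half-site and the substitutions A12G, A13G and T14A. At sick, 3 sites held 10 bases and 6 held from 6 to 8, with a median of 8, equal to that of the list. The poorest of them, at summit 8, carried 6 substitutions and was one of the 57 listed sites with 6 matched bases or fewer. In all, 4 of the 11 sites held 10 bases or more, against 14.6% of all listed sites. Since 9 of the 11 belong to a single gene, they are not replicates, and no test was made of this difference.

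The central motif CCCNNGGG was whole in 4 of the 11 sites (36.4%), against 43.0% of all listed sites. An exact 95% binomial interval of 10.9 to 69.2% would hold for 11 independent sites, which these are not, and the shares were not tested against each other. These 4 sites were those of Sep4, Mrtf and summits 2 and 3 of sick. The other 7 sites at sick each missed 1 of the 6 central bases. In 6 of these 7 sites the missing base lay in the right-hand GGG: the left CCC was whole in 8 of the 9 sites and the right GGG in 3. A similar imbalance was present across the list, where CCC was whole in 88.9% of the sites and GGG in 48.2%. It depends on the strand on which the sites were listed. The substitution shared by most member sites was A12G, found in 6 of the 11, just outside the central motif. Its share over all listed sites was not counted, so nothing is read from this number. As listed, the sites at sick were unlike each other, with 4 to 11 mismatches of 15 between any 2 of them and a median of 7 over the 36 pairs. Reverse complements were not used here, so these values are not on the measure used below for sites of other genes.

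**Figure D1:**
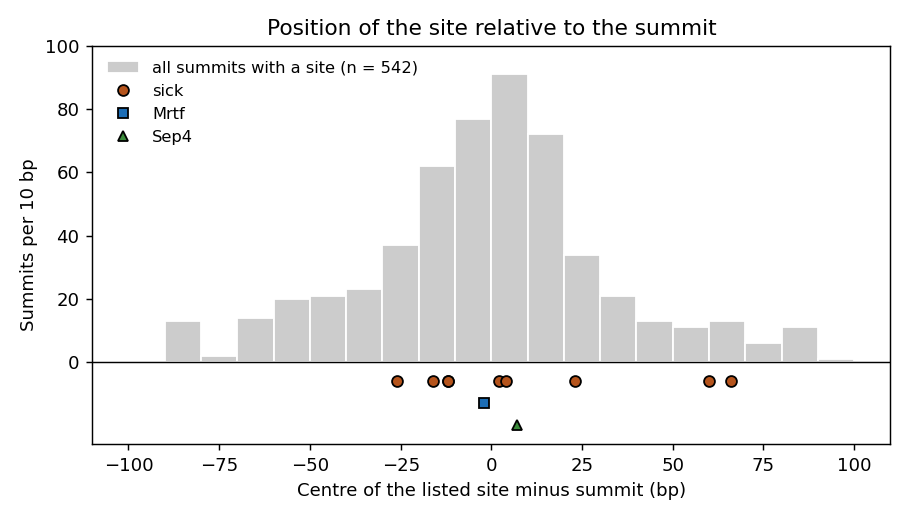
Centre of the listed site minus the position of the summit, in bp, for all 542 summits that have a site (grey bars, summits per 10 bp) and for the summits of sick, Mrtf and Sep4 (symbols under the axis, where height has no meaning). The sites of 8 of the 11 summits lie within 25 bp, and 2 sites at sick lie 60 and 66 bp to the right; a pair of sick sites at -12 bp coincide.

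The sites lay close to their summits, on both sides of them. The centre of the site was 7 bp from the summit at Sep4 and 2 bp from it at Mrtf. At sick the distances were 16, 23, 12, 60, 66, 2, 26, 12 and 4 bp for summits 1 to 9, so that only summits 4 and 5 had their site further than 26 bp away. Taken over the 11 summits, the median distance was 12 bp, against 18 bp over all summits with a site. A site within 25 bp was found at 8 of the 11 summits (72.7%), against 62.4% of all summits. With 6 sites to the right and 5 to the left, no side prevailed. The positions of the 11 summits all end in the same digit, so differences of a few bp may lie within the step at which summits were placed.

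Sites of other genes were compared base by base, as listed and as reverse complements. In a reverse complement the motif is out of register with the listed sites, so similar sites listed on the other strand could be missed. In this comparison, the listed sites at other genes that were most like those of Sep4 and Mrtf differed from them by 2 of the 15 bases. For Sep4 these were the sites at Gprk2, a kinase of G protein-coupled receptors, at Cyp4ad1, and at a summit shared by CG43954 and Lasp, which encodes an actin-binding LIM and SH3 domain protein of muscle. The Gprk2 and Lasp sites are shown because they carry the T3G base of Sep4 as well.
Gprk2, chr3R:27276113-27276127: tATgCCCaaGGGAAT
CG43954/Lasp, chr3L:16694534-16694548: tATgCCCatGGGtAT
Fold enrichment at these summits was 2.62 at Gprk2, 2.03 at Cyp4ad1 and 2.64 at Lasp, against 10.58 at Sep4. Since Sep4 was chosen for its height, most other summits must be lower, and this gap is only described. The 8 central bases of the Sep4 site occurred in 21 sites of the list. For Mrtf, the nearest sites were those of Cyp12e1, IntS6, bip1, jing and summit 2 of sick, each with 2 mismatches and with fold enrichments of 2.92, 2.23, 2.72, 5.17 and 2.19. Among the sites at sick, that of summit 9 came within 2 bases of a site at kn, the gene encoding Col itself, whose summit had a fold enrichment of 3.55. The same distance separated summit 1 from sites at Dys, Poxm, bip1 and hth, summit 2 from Mrtf and bip1, summit 6 from CG33467, summit 7 from bib and summit 8 from CG42789. Summit 5 was nearest to a site at sli and summit 3 to sites at CG14459, Rbp6, Sema-2b and cno, all with 3 mismatches, while the site of summit 4 had 4 mismatches to its 12 nearest. Compared in this way, no site of another gene was closer than 2 bases to any of the 11.

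**Figure D2:**
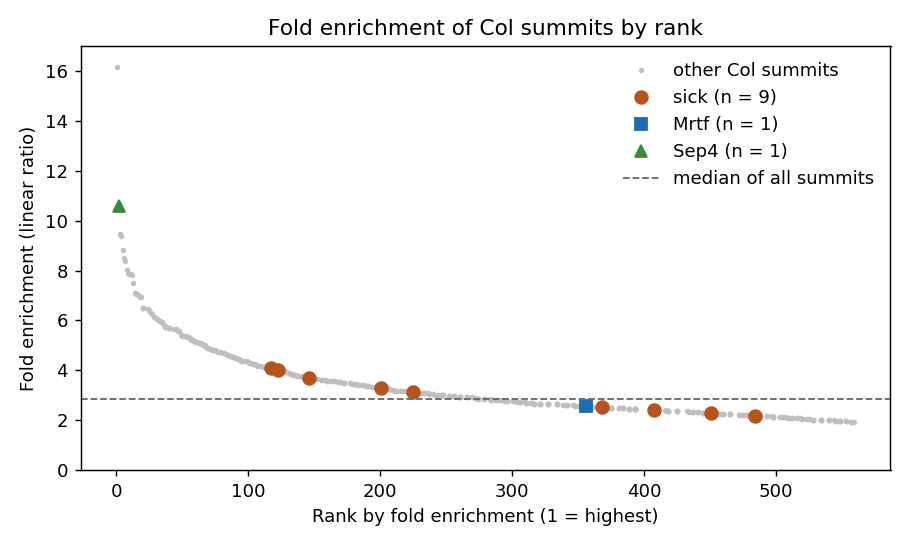
Fold enrichment (linear ratio) of all 559 Col summits against their rank, with the summits of sick, Mrtf and Sep4 as coloured symbols and the median of all summits, 2.85, as a dashed line. Sep4 is second, at 10.58, Mrtf lies under the median at 2.57, and the summits at sick run from 4.1 to 2.19.

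The 3 genes occupied very different places in the order of fold enrichment. The summit of Sep4, at position 16583782 of the X chromosome, had a fold enrichment of 10.58 and rank 2 of 559. The one summit above it was at Oaz (16.17) and the next below it at px (9.48). The summit of Mrtf, at position 2745212 of chromosome arm 3L, had a fold enrichment of 2.57 and shared rank 356 with 2 other summits, so 36.0% of all summits were lower. The 5 summits just above it had 2.58 and the 2 just below it 2.56, and Mrtf could not be told apart from them. Sep4 and Mrtf each had a single summit. The nearest summits of other labels were 481 kb to the left of Sep4 (disco, 2.05) and 1070 kb to the right (unc-4, 2.32), and for Mrtf 814 kb to the left (Dbx, 2.29) and 64.5 kb to the right (CG43444, 2.97).

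At sick, 9 summits of modest height were spread over 105600 bp. In order along the arm, at positions 19802562, 19807212, 19829552, 19829832, 19831582, 19837152, 19838842, 19893372 and 19908162, their fold enrichments were 3.31, 2.19, 4.1, 4, 2.41, 2.53, 2.29, 3.13 and 3.68. The highest pair, summits 3 and 4, were direct neighbours, and both outer summits, 1 and 9, were above 3. The median was 3.13, against a median of 2.85 and quartiles of 2.38 and 3.74 over all summits. None reached the height of Sep4, and both sick and the list as a whole had summits on either side of Mrtf's 2.57. A fold enrichment of at least 3 was reached by 5 of the 9 summits and, with Sep4, by 6 of the 11, against 44.9% of all summits, a share from which nothing is read because height took part in the choice of the genes.

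**Figure D3:**
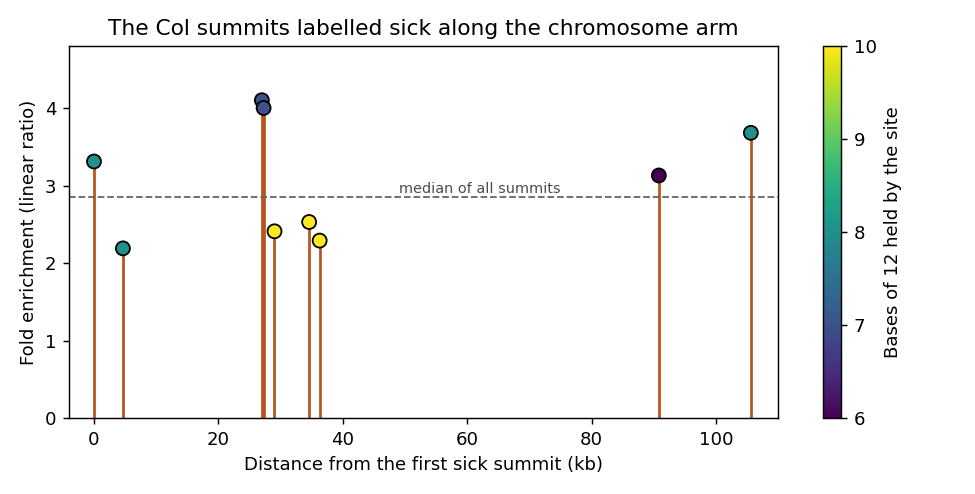
Fold enrichment (linear ratio) of the 9 summits labelled sick against their distance from the first one, in kb. The colour gives the number of the 12 fixed bases held by the site, and the dashed line is the median of all summits. A dense group of 5 summits contains the 2 highest summits, with sites of 7 matched bases, and 3 lower ones, with sites of 10.

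The summits at sick were unevenly spaced. Summits 3 to 7 lay within 9290 bp of each other, with gaps of 280, 1750, 5570 and 1690 bp. Summits 1 and 2, 4650 bp apart, lay 22340 bp to the left of this group, and summits 8 and 9, 14790 bp apart, began 54530 bp to its right. The shortest gap, 280 bp between summits 3 and 4, was among the 3 shortest of the list. Each of these 2 summits had a site of its own, at 12 and 60 bp. The median gap at sick was 5110 bp, against 78960 bp between neighbouring summits over the whole list. Of the 8 gaps, 5 were at most 10 kb, against 18.1% of all gaps. A gene picked for its many summits must have short gaps, and this difference is therefore only described. No summit of another label lay between those of sick, and the nearest ones were 321 kb to the left (CG10195, 2.64) and 588 kb to the right (CG34007, 2.44).

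Compared with the genes that had the next most summits, those at sick were more numerous but mostly wider apart, and neither the highest nor the best matched. The median gap was 2425 bp at sli, 2060 bp at Oaz, 2780 bp at CG34380 and 1950 bp at olf413, all shorter than at sick, and 37025 bp at hth. In a stretch of 10 kb, a length set with the positions known, sick had at most 5 summits, against at most 4 anywhere else in the list. These 5 include summits 3 and 4, which lay 280 bp apart and are joined when summits within 500 bp are merged. As sick was chosen for its number of summits, its larger counts are only described. The 7 summits at sli, which encodes the guidance ligand Slit, spanned 28730 bp with a median fold enrichment of 2.87 and a highest value of 7.51. The 6 at Oaz, a zinc finger gene, spanned 16920 bp with a median of 3.675 and a highest value of 16.17. Of the genes with 5 summits, CG34380 and olf413 had highest values of 3.11 and 3.95 over 21730 and 25930 bp. The homeobox gene hth resembled sick more in extent, with summits from 2.42 to 3.57 over 137680 bp, but had no more than 2 in any 10 kb. The median number of matched bases was 8 at sick, 8.5 at sli, 9.5 at Oaz, 8 at CG34380, 7 at hth and 7 at olf413. These differences were not tested, as each gene is a single case.

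**Figure D4:**
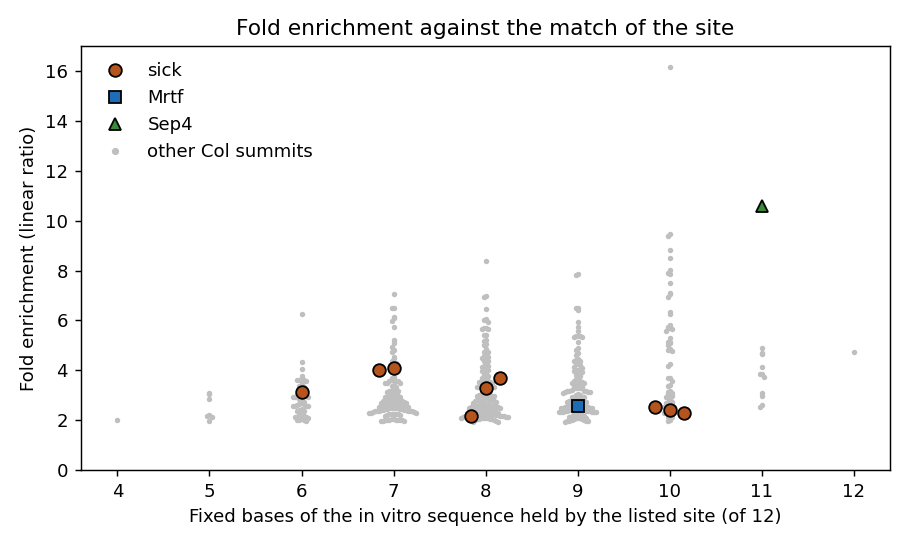
Fold enrichment (linear ratio) of each summit against the number of the 12 fixed bases held by its site, for the 542 summits that have a site, shifted sideways where points coincide. Sep4 is the highest of the 13 summits with 11 or 12 bases, while the 3 sick summits with 10 bases lie near the bottom of their column and the 2 with 7 bases in the upper part of theirs.

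At sick, the summits with the best matched sites by the count of 12 bases were not the highest. Over the list, summits whose site held 6 bases or fewer had a median fold enrichment of 2.69, and the median was 2.71, 2.83, 2.92, 3.49 and 3.86 at 7, 8, 9, 10 and 11 or 12 bases. Sep4, which was chosen for its height, was the highest of the 13 summits in the last class, of which the next had 4.91. Mrtf, with 9 bases, lay between the lower quartile (2.44) and the median of its class. The sick summits with sites of 10 bases, numbers 5, 6 and 7, had fold enrichments of 2.41, 2.53 and 2.29, all under the lower quartile of 2.63 for such sites. The highest pair, at 4.1 and 4, had sites of 7 bases and stood above the upper quartile of 3.51 for their class. All 5 sick summits that reached 3 had sites of 6 to 8 bases. By the central motif CCCNNGGG the order was different. It was whole at the highest sick summit, number 3 (4.1), and at the lowest, number 2 (2.19), while the sites of summits 5, 6 and 7 each missed 1 of its bases. Without replicates, whether these differences within sick exceed the error of the measurement could not be tested.

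A label names a gene by the authors' assignment of peaks, either the gene that overlaps the peak or the one with the nearest transcription start. Whether each summit lies in an intron, an exon or a flank of its gene was not analysed here. In the RefSeq annotation of Release 6, used only for gene names and order, sick overlaps 13 other genes, of which 4 code for proteins (CG13962, CG10481, TotF and TotE), 5 for small nuclear RNAs and 4 for long noncoding RNAs. Mrtf overlaps 1, Acp62F, and Sep4, there named Septin4, none. No overlapping gene and none of the protein-coding genes next to them (fs(2)ltoPP43 and COX4 at sick, Fife and Non2 at Mrtf, Axs and CG4678 at Sep4) carried a Col label.

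The other genes of the same machinery that were listed here carried a Col label at a share near that of all protein-coding genes. Of 76 genes in 4 lists, 3 had one (3.95%, exact 95% binomial interval 0.822 to 11.1%), against 2.92% of the 13962 protein-coding genes of the RefSeq table. With so few genes in each list, nothing is read from a list without a label. None of the 10 septins and septin partners had one, Septin1, Septin2, Septin5 and pnut among them. There was also none at the 7 genes on the side of Mrtf, bs and the 6 actin genes, or at the 25 genes that lead from Rac to cofilin and to branched actin through Arp2/3. The 3 labelled genes belonged to the 34 of actin assembly, crosslinking and motors. CAP, which encodes an adaptor protein that binds vinculin, had a summit of 7.08 at position 6157292 of chromosome arm 2R, rank 15 of the list, with a site that held 10 bases at 28 bp. Abl, a tyrosine kinase that acts in axon guidance, had one of 2.48 at 16634422 of arm 3L, with a site of 7 bases at 70 bp. The summit shared by CG43954 and Lasp, at 16694532 of arm 3L, had 2.64 and a site of 10 bases at 9 bp. Summits near these genes that carry another gene's label were not counted. The lists do not hold every gene of the cytoskeleton. Labels such as Myo31DF (2.27), Shroom (3.54), Cip4 (2.14) and cindr (2.67) were not counted, so the share holds for these lists only.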

How the data were processed

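Col-IP and mock-IP libraries, each from 2 pooled IPs, and an input library were made from stage 13 to 14 embryos and sequenced as single-end reads of 54 bases. Of the deposited data, only the list of Col summits was used. The authors aligned the reads to dm3 (BDGP release 5) with Bowtie 0.12.7, discarded reads from the plasmid that came with the recombinant Col used for elution, and ran the peak caller SISSRs at lenient thresholds. The deposited value of each summit is a linear fold enrichment, a ratio written behind the gene label, and other units were not used. Lenient calling keeps weak summits, so counts depend on the fold enrichment required.

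The sequences and coordinates of 542 sites found by the authors with MEME were read from their supplementary text file and joined to summits by the distance to the site centre, at most 100 bp. No other value was taken from the supplements. Of 414 gene names in the labels, 409 were found among the current symbols or unambiguous older names of the RefSeq table (Release 6, names and gene order only), the 3 genes described here included. Where given, intervals of shares are exact 95% Clopper-Pearson intervals, which cover counting error over sites or genes only. No tests were made, because the series has 1 Col-IP library. The genes and the gene lists were chosen with earlier results of these data known. Named were, besides the 3 genes, the labels with the next most summits, the summits next in rank and in position, those with the most similar site, and the labelled genes of the lists, but the nearest sites of sick summit 4 only by their number. The labels hth, CG34380 and olf413 tie for a place in the first of these. The values were recomputed with only summits of fold enrichment 3 or more, with neighbouring summits joined (200 or 500 bp), with site distances of 50 and 25 bp, with a stricter or looser motif, and with joint or literal gene names. The functions were tested on simulated sites. Python 3.11.15, numpy 2.4.6, scipy 1.17.1 and matplotlib 3.10.9 were used. Mock-IP and input values, quantitative PCR and reporter assays were not analysed here.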

Additional observations from a re-analysis of the deposited data

How the results depend on the processing

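Of 18 alternatives over 8 results, 14 left the value within 1.5 times of that reported. Requiring a fold enrichment of at least 3 left 6 of the 11 summits and raised the median gap at sick to 20890 bp. It left 1 of the listed cytoskeleton genes with a summit (CAP). Fewer summits must give such changes, while the span of the sick summits stayed at 105600 bp. Allowing 1 mismatch, a looser pattern, let all 11 sites hold CCCNNGGG. Merging summits within 500 bp joined summits 3 and 4 of sick and left 10. No paired analysis was possible because Col-IP and mock-IP were sequenced once each. As read counts were not used, neither the error of a fold enrichment nor the signal of the mock-IP at these summits could be given.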
